A study of Mus musculus with 10 samples.

Results

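Runx1 and its upstream region were described across peak lists of the myogenic factors MyoD and Myf5 and of acetylated histone H4 (H4Ac). The members were all peaks that overlap a window of 520 kb on mouse chromosome 16, from position 92580000 to 93100000 of build mm9. The region was chosen by the peaks and coverages seen there in these same lists, so the counts and coverages in it are a description and no test was made on them. It held 121 of 241128 peaks in 7 lists: 28 MyoD peaks, 58 Myf5 peaks, 18 H4Ac peaks in cells with MyoD, 8 in cells with Myf5, 9 in cells with GFP, and 0 in both mock lists. The gene body was placed at 92601700 to 92826300, a length of 224.6 kb that equals the length of Runx1 in RefSeq's GRCm38 annotation. Runx1 is transcribed from the minus strand, so its distal (5′) end is at the higher coordinate, and distances are given from that end. Positive ones lie upstream of the gene, and negative ones lie inside it or downstream of its other end.

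All cells were mouse embryonic fibroblasts that lack both MyoD and Myf5 (MyoD-/-; Myf5-/-). They carried a lentivirus with MyoD, with Myf5, or with green fluorescent protein (GFP) as the control, got differentiation medium 24 h after the infection, and were collected after 20 h more. MyoD and Myf5 were precipitated from cells with the matching factor, H4Ac was precipitated from native chromatin of all 3 populations, and each factor antibody was also used in cells with GFP as a mock. Each group had 1 list, and those of MyoD and Myf5 are titled as 2 replicates in 1 list, so replicate error cannot be given. The amount of factor made from the virus is not given in the sources used here. Input DNA of 3 samples was not analysed here.

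Runx1 encodes the DNA-binding subunit of core binding factor, a regulator best known for its role in forming blood stem cells. In skeletal muscle it is known as a gene that is strongly induced when muscle loses its nerve. Transcription starts from a distal and a proximal promoter. Both myogenic factors belong to the basic helix-loop-helix class and bind E-boxes, the letters CANNTG, and acetylation of histone H4 marks open, active chromatin.

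The 2 Runx1 promoters are shown as landmarks of the gene and because 1 Myf5 peak spans the distal end. RefSeq places the distal one at chr16:92826075-92826324 and the proximal one at chr16:92697330-92697579 (GRCm38.p6, minus strand), each here as the 250 bases before the start, with every CANNTG in capitals.
Runx1 distal promoter: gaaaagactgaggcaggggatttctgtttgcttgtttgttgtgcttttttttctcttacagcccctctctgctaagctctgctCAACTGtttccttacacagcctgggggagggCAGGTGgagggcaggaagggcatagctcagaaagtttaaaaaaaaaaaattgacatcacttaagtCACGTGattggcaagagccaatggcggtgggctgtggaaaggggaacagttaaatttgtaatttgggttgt
Runx1 proximal promoter: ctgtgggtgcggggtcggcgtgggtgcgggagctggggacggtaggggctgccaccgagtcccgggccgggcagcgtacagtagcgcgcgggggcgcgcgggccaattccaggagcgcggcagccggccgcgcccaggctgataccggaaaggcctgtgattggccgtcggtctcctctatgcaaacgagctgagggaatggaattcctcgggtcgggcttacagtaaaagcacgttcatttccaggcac
The distal sequence has 3 such matches that do not overlap each other, and their first bases are counted from the start. The match at -167 reads CAACTG. The one nearer to the start, at -136, reads CAGGTG. The nearest, at -71, reads CACGTG. The proximal sequence, with 67.6% G and C against 45.6% in the distal one, has 0. Searched on both strands, CANNTG occurs in 66.2% of 32851 mouse promoters of this length, CAGGTG on either strand in 17.2% and the palindrome CAGCTG in 13.0%. A match describes letters only, and the absence of one says nothing of binding.

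At the distal end of the gene itself, Myf5 coverage was low and MyoD was not called. A Myf5 peak at 92826012 to 92826756, with a maximum coverage of 41 reads against a cutoff of 27, spanned the distal end of the gene. No MyoD peak and no H4Ac peak of any population lay there. On either side of it were sites of both factors. The site in the gene, at -2.4 kb, had a coverage of 102 for MyoD and 267 for Myf5. The site outside the gene, 2.2 kb upstream, had 72 for MyoD and 149 for Myf5. RefSeq gives a distance of 128.7 kb between the 2 starts in GRCm38. In mm9, 2 Myf5 peaks without a MyoD peak, at 92696691 to 92697991 (coverage 75) and at 92698073 to 92699488 (39), each overlapped an H4Ac region, centred at -128.3 and -127.5 kb. As coordinates were not converted between builds, none of these peaks was assigned to the proximal promoter. The 2 regions were called in cells with MyoD (coverages 36 and 37) and with GFP (34 and 46), but not in cells with Myf5. These peaks were singled out after their values were seen.

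**Figure D1:**
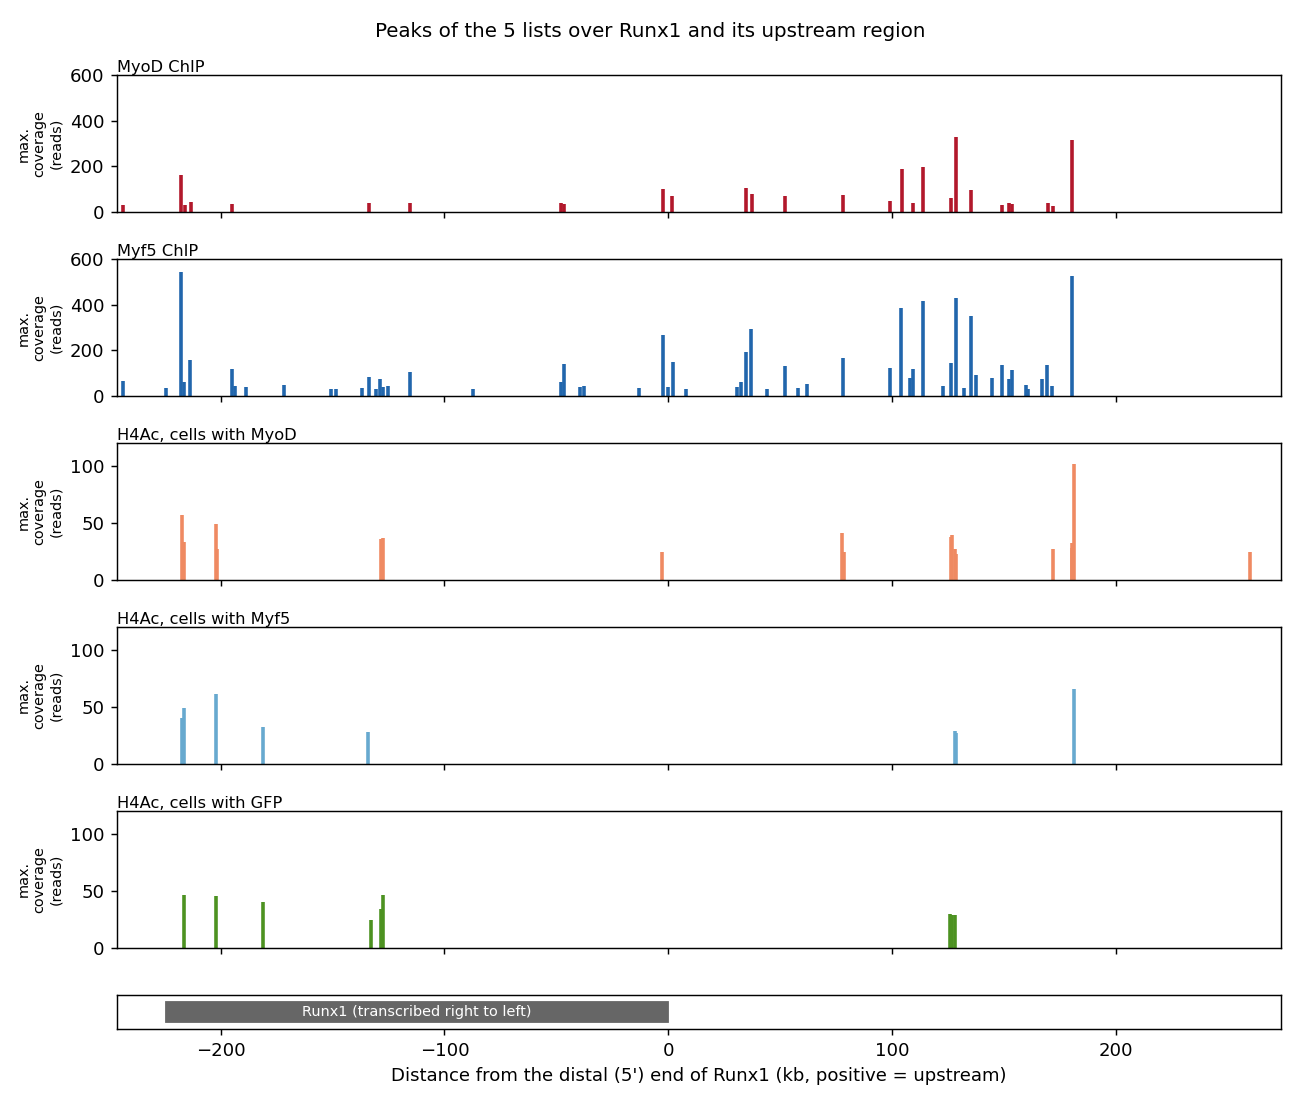
Maximum coverage in reads (vertical axis) of each peak of the MyoD, Myf5 and 3 H4Ac lists against the distance from the distal end of Runx1 in kb (horizontal axis), with the gene as a grey bar. Factor peaks crowd in the 84 kb that start 98 kb upstream, and the tallest H4Ac peaks, 102 in cells with MyoD and 66 in cells with Myf5, stand at the far end of that stretch.

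Averaged over the whole window, factor peaks were dense, and most so upstream of the gene. The 273.7 kb between the distal end and the edge of the window held 18 MyoD and 33 Myf5 peaks, or 6.58 and 12.1 per 100 kb. The gene body held 9 MyoD and 24 Myf5 peaks, or 4.01 and 10.7 per 100 kb. The 21.7 kb of the window downstream of the gene held 1 peak of each factor. Over the whole lists the densities were 1.75 for MyoD and 3.64 for Myf5, so the window had 3.07 and 3.08 times the density of the genome. Of 4939 tiles of 520 kb across the genome, 4.31% held at least as many MyoD peaks as the window and 3.16% at least as many Myf5 peaks. Within the upstream stretch the sites were uneven. The 84 kb that start 98 kb upstream, a stretch picked after its values were seen, held 13 of the 18 upstream MyoD peaks and 21 of the 33 Myf5 peaks, and from there to the edge of the window neither factor had a peak. In RefSeq's gene order the next protein-coding genes are Setd4 on the upstream side and Clic6 on the other.

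The H4Ac lists were spread differently. Cells with MyoD had 11 upstream H4Ac peaks and 7 in the gene, cells with Myf5 had 3 and 5, and cells with GFP had 3 and 6. Upstream this was 4.02 peaks per 100 kb in cells with MyoD, 1.10 in cells with Myf5 and 1.10 in cells with GFP, beside 1.43, 1.24 and 1.21 over the whole lists. At least as many H4Ac peaks as in the window, 18, 8 and 9, were held by 12.5% of tiles in cells with MyoD, 33.8% with Myf5 and 29.1% with GFP. The window held 9 more H4Ac peaks in cells with MyoD than in cells with GFP, a surplus reached or passed by 2.21% of tiles. Cells with Myf5 had 1 fewer than cells with GFP. Coverage cutoffs in the window were lower in cells with MyoD, at 21 to 26 reads, than with Myf5 (24 to 29) or GFP (24 to 30), and peaks were narrower, with a median width of 319.5 bp against 607 and 381 bp. The summed width was 6.5 kb in cells with MyoD, 5.6 kb with Myf5 and 3.7 kb with GFP. The cutoffs of the GFP list, applied to every list, left 13 of the 18 peaks in cells with MyoD and all 8 in cells with Myf5. The surplus of cells with MyoD over cells with GFP was then 4, reached or passed by 2.19% of tiles, an alternative chosen after seeing the data.

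**Figure D2:**
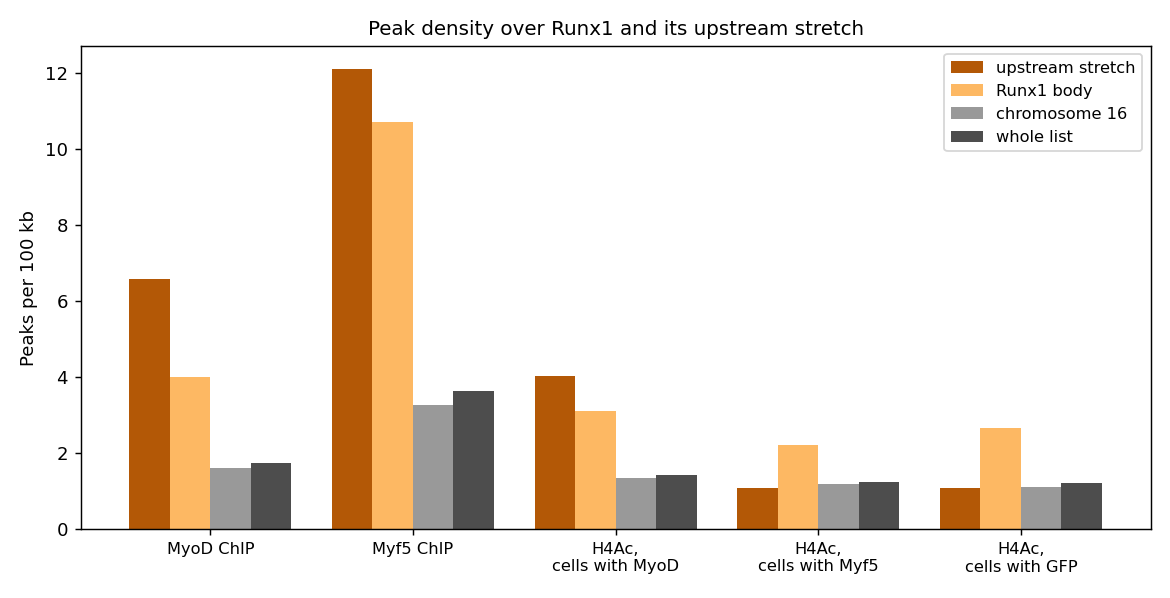
Peaks per 100 kb (vertical axis, from 0) in the upstream stretch, the Runx1 body, chromosome 16 and the whole list (bars), for each of the 5 lists. The upstream bar is the tallest for MyoD, Myf5 and H4Ac in cells with MyoD (4.02). H4Ac in cells with Myf5 and with GFP stands at 1.10 there, from 3 peaks each, beside whole-list levels of 1.24 and 1.21.

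With the full lists, the 28 MyoD peaks of the window all overlapped a Myf5 peak, near the 97.5% of the whole MyoD list. With the Myf5 list held to the 45015 strongest peaks, the length of the MyoD list, 27 of 28 did. If the 28 were independent draws, a count of 0 would allow a share without Myf5 of up to 10.7%. They are instead all MyoD peaks of a window chosen from these lists, and neighbouring peaks are not independent. Such limits and intervals cover counting error only and show no more than how small the counts are. In the other direction, 28 of 58 Myf5 peaks overlapped a MyoD peak, beside 45.9% of the whole Myf5 list. Joining overlapping peaks gave 58 factor sites, 28 with both factors (45.1% of joined sites in the genome) and 30 with Myf5 only. The size of the second class depends on the longer Myf5 list: at equal length 33 Myf5 peaks were left in the window, 27 at a MyoD peak and 6 without one. No share of the whole lists at equal length is given here, so these counts show no feature of the window. With the full lists, the Myf5 coverage of shared sites ran from 45 to 545 with a median of 139, and that of sites with Myf5 only from 28 to 91 with a median of 40. The medians over the whole Myf5 list were 111 with and 39 without a MyoD peak. At shared sites, which overlap by definition, the centres were within 100 bp at 21 of 28, with a median gap of 61.25 bp. Overlap alone limits this gap, and no share for the genome was computed. Across these 28 sites, which share their libraries and the choice of window, Spearman's rho between MyoD and Myf5 coverage was 0.88, against 0.80 over all 43888 MyoD peaks with a Myf5 peak.

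**Figure D3:**
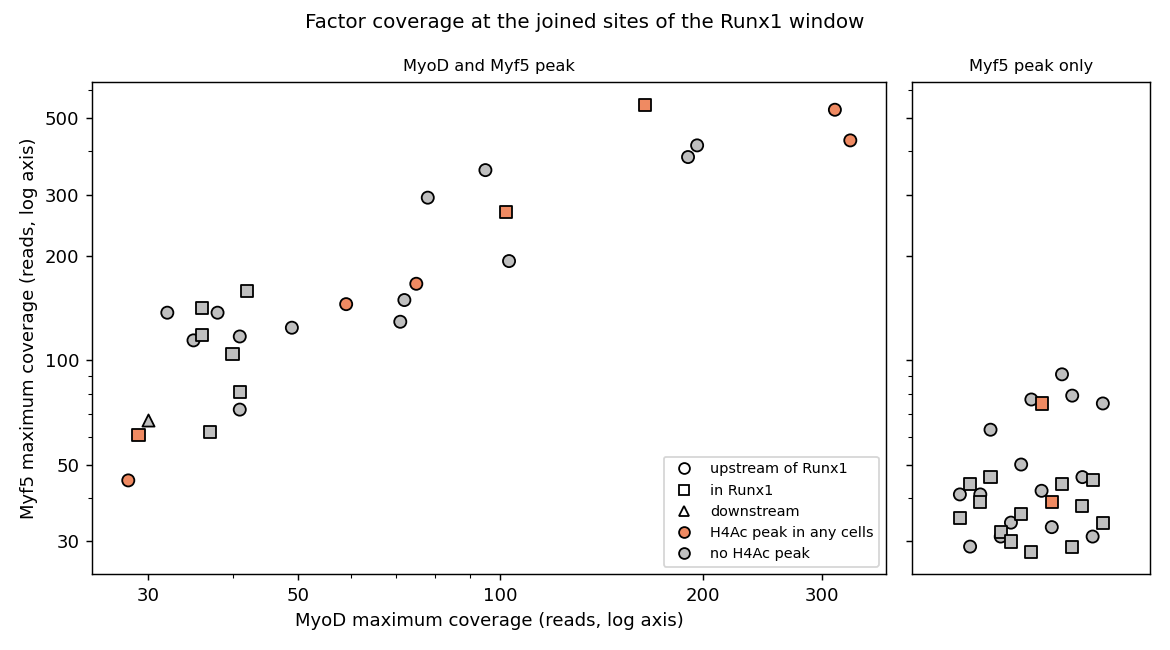
Myf5 against MyoD maximum coverage in reads at the joined factor sites (log axes), with the sites of Myf5 alone in the side panel, where the horizontal position has no meaning. Shape gives the place relative to Runx1 and orange marks an H4Ac peak in any population. The 30 sites of Myf5 alone stay at a coverage of 91 or lower, and the shared sites reach 331 for MyoD and 545 for Myf5.

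The strong sites of the window were 8, those in the strongest 10% of either list. They were 8 of 58 joined sites, beside 10.1% in the genome. By construction this class takes 10.0% of the MyoD list and 10.1% of the Myf5 list, and the window had 5 of 28 MyoD peaks and 8 of 58 Myf5 peaks in it. Coverage is the authors' maximum per peak and is not scaled between lists, so ranks are given within each list. The first strong site lay at 92954210 to 92955405, 128.6 kb upstream, and had the highest MyoD coverage of the window, 331 (rank 779 of 45015, p = 8.95e-97 in the authors' list). Its Myf5 coverage was 430 (rank 2763 of 93787). The next lay 180.7 kb upstream, at 93006483 to 93007557, with 314 for MyoD (rank 895) and 527 for Myf5 (rank 1758). These were the 2 sites of the window within the strongest 2% of the MyoD list, at 1.73% and 1.99%.

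Another pair of strong sites lay between them and the gene, at 92939742 to 92940706 and 92930319 to 92931009, which is 113.8 and 104.3 kb upstream. The farther one had a coverage of 196 for MyoD (rank 2583) and 416 for Myf5 (rank 2967). The nearer one had 190 for MyoD (rank 2786) and 385 for Myf5 (rank 3436). The strongest Myf5 site of the window was near the other end of the gene. It lay at 92608170 to 92609300, or -217.6 kb, with 164 for MyoD (rank 3712) and 545 for Myf5 (rank 1623). The remaining 3 were strong in the Myf5 list only by the limit of 10%. They lay 135.4 kb upstream (MyoD 95, Myf5 353), 37.2 kb upstream (MyoD 78, Myf5 294) and at -2.4 kb in the gene (MyoD 102, Myf5 267). Control coverage at the 8 sites was 2 to 6 for MyoD and 9 to 17 for Myf5, beside medians of 5 and 11 over the lists. The 17 was at the strongest Myf5 site, and no Myf5 peak of the window had a higher control coverage.

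The order of these sites was not the same by both factors. Ranked over the same 43888 MyoD peaks with a Myf5 peak, the site 128.6 kb upstream stood at the top 1.76% by MyoD and 6.75% by Myf5. The site near the far end of the gene stood at 8.44% by MyoD and 3.99% by Myf5. Those 37.2 and 135.4 kb upstream stood at 27.8% and 20.9% by MyoD, and at 13.5% and 9.88% by Myf5. Of the 28 shared sites, 11 stood higher by MyoD and 17 by Myf5, and of the 8 strong ones 4 and 4. The same split over all 43888 peaks was not computed, so no lean of the window to either factor can be read from it. With 1 list per factor, no error of these ranks can be given.

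Factor sites of the window without an H4Ac peak in any population were 48 of the 58 joined sites, beside 83.6% of joined sites in the genome. Among MyoD peaks they were 20 of 28, beside 78.4% of the whole list, so both shares were near or below those of the genome. Joined sites with H4Ac numbered 10 in cells with MyoD, 4 with Myf5 and 5 with GFP, beside 13.6%, 11.9% and 11.5% of joined sites in the genome. Each joined site held 1 Myf5 peak, so the same 10, 4 and 5 of 58 Myf5 peaks stand beside 13.6%, 11.9% and 11.6% of the whole Myf5 list. MyoD peaks with H4Ac numbered 8 in cells with MyoD, 4 with Myf5 and 3 with GFP, beside 18.6%, 15.1% and 14.4% of the whole MyoD list. Among the 8 strong sites, 4 carried H4Ac in cells with MyoD, 3 with Myf5 and 1 with GFP, against 30.9%, 21.6% and 18.9% of strong sites in the genome. Of the 5 MyoD peaks in the strongest 10% of their list, 3 had H4Ac in cells with MyoD, 3 with Myf5 and 1 with GFP, against 40.3%, 26.4% and 23.0% of that class in the genome. The 4 strong sites without H4Ac in any population, beside 66.5% of strong sites in the genome, were those 37.2, 104.3, 113.8 and 135.4 kb upstream. Among them are the sites with MyoD coverages of 190 and 196. Coverage counts reads of all cells, and more marked cells cannot be told apart from more mark per cell.

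Most H4Ac peaks of cells with MyoD lay at factor peaks. Upstream, 10 of 11 overlapped a MyoD peak, and in the gene 3 of 7, a difference that was not tested. Over the window 13 of 18 did (72.2%, exact Clopper-Pearson 95% interval 46.5 to 90.3), where the whole list gives 31.9%, and 15 of 18 overlapped a Myf5 peak, where it gives 50.3%. In cells with Myf5, 5 of 8 H4Ac peaks overlapped a Myf5 peak (62.5%, 24.5 to 91.5) and a MyoD peak, where the whole list gives 45.5% and 27.2%. In cells with GFP, 4 of 9 lay at a place that MyoD bound in cells with MyoD (44.4%, 13.7 to 78.8), where the whole list gives 27.4%, and 6 of 9 at a Myf5 place, where it gives 47.0%. The intervals are wide because the counts are small, and the window was chosen with such overlaps known. MyoD and Myf5 peaks were also 3.07 and 3.08 times as dense in the window as in the genome. The overlap shares here and below do not account for that density. The 13 peaks lay at 8 MyoD peaks, so they are not independent. These intervals and those below are no test against the whole lists.

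Joined across the 3 populations, H4Ac peaks made 19 regions, and 10 of them were not called in cells with GFP. A factor peak lay in 14 of the 19, beside 46.9% of regions in the genome. Regions called in cells with MyoD only were 7, beside 14.0% in the genome, those with Myf5 only 1 (13.7%) and those with both but not GFP 2 (8.3%). Regions called with MyoD and GFP were 4 (7.89%), with Myf5 and GFP 1 (4.79%), with GFP only 1 (10.5%) and in all populations 3 (40.8%). Counted as peaks, 11 of 18 in cells with MyoD overlapped no GFP peak (61.1%, 35.7 to 82.7), beside 30.7% of the whole list. In cells with Myf5 it was 3 of 8 (37.5%, 8.52 to 75.5), beside 31.9%. In the other direction, 2 of 9 GFP peaks had none in cells with MyoD and 5 of 9 had none in cells with Myf5, beside 23.9% and 27.2%. Of the 11 peaks gained in cells with MyoD, 9 lay at a MyoD peak, beside 36.7% of gained peaks in the genome, and 4 overlapped a peak of cells with Myf5, beside 43.5%. Their coverage was at least 1.5 times the cutoff in 4, beside 11.2%. With a gap of up to 500 bp taken as shared, 8 of the 11 remained without a GFP peak, and 2 of the 3 in cells with Myf5. Upstream of the gene lay 8 of the 11, and 6 reached the cutoff that the GFP list used for their GC content. For the gap, the upstream place and the GFP cutoff, no share over all gained peaks is given here. Those counts therefore cannot be set against the genome. Of the 3 gained in cells with Myf5, 2 lay at a Myf5 peak (35.4%), 2 overlapped a peak of cells with MyoD (38.6%) and 1 had at least 1.5 times the cutoff (9.71%).

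**Figure D4:**
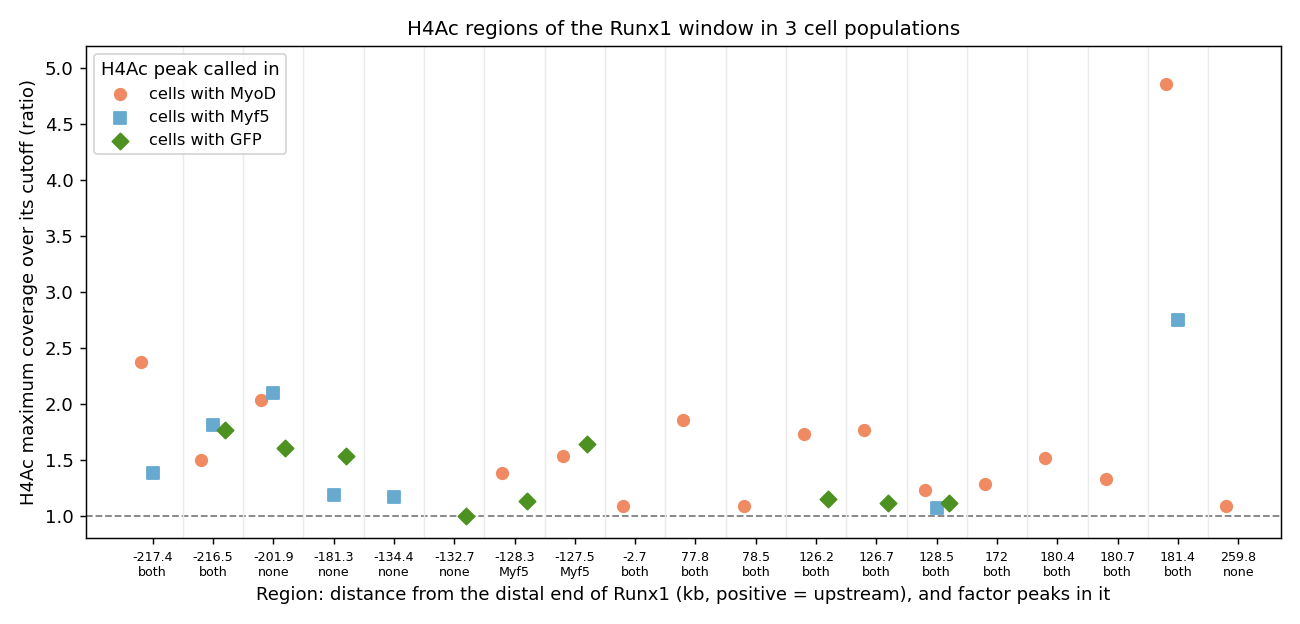
Maximum coverage divided by its cutoff (vertical axis, the dashed line at 1 is the cutoff) for each of the 19 H4Ac regions, ordered by distance from the distal end of Runx1 (horizontal axis, kb), in cells with MyoD, Myf5 and GFP. The factor peaks found in a region are named below it. A missing symbol means that no peak was called. The region 181.4 kb upstream stands at 4.86 in cells with MyoD and 2.75 in cells with Myf5, with no peak in cells with GFP.

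The strongest of all was the region 181.4 kb upstream, beside the factor site there. In cells with MyoD it lay at 93007191 to 93008134, with a coverage of 102 against a cutoff of 21 (rank 1168 of 36864, the top 3.17%). In cells with Myf5 it lay at 93007212 to 93008182, with 66 against a cutoff of 24 (rank 3996 of 32041, the top 12.5%). The control coverage was 6 in both, and no peak was called there in cells with GFP. Cells with MyoD had 2 further peaks at this site, with coverages of 32 and 28, which were not called in cells with Myf5. Seen from the middle of the MyoD peak, these 3 ran from -481 to -198 bp, from -92 to 61 bp and from 171 to 1114 bp. The peak of cells with Myf5 ran from 192 to 1162 bp. The strong H4Ac peak thus began inside the factor site, to one side of its middle, and reached past the end of the factor peaks at 537 bp (MyoD) and 583 bp (Myf5).

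The other region gained in both populations lay at the strongest Myf5 site, at -217.4 kb. Its H4Ac coverage was 57 against a cutoff of 24 in cells with MyoD and 40 against 29 in cells with Myf5. This gained call depends on the overlap rule: the nearest GFP peak was 429 bp away in cells with MyoD and 286 bp away in cells with Myf5, so with a gap of up to 500 bp taken as shared neither peak counts as gained. In cells with GFP nothing was called at the factor site, but the neighbouring region at 92609340 to 92610332 was called in all 3, with a coverage of 33 in cells with MyoD, 49 with Myf5 and 46 with GFP. From the middle of the MyoD peak, the gained peak ended at 339 bp and the neighbour began at 812 bp in cells with MyoD, and at 482 and 596 bp in cells with Myf5. In cells with GFP the neighbour began at 768 bp.

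**Figure D5:**
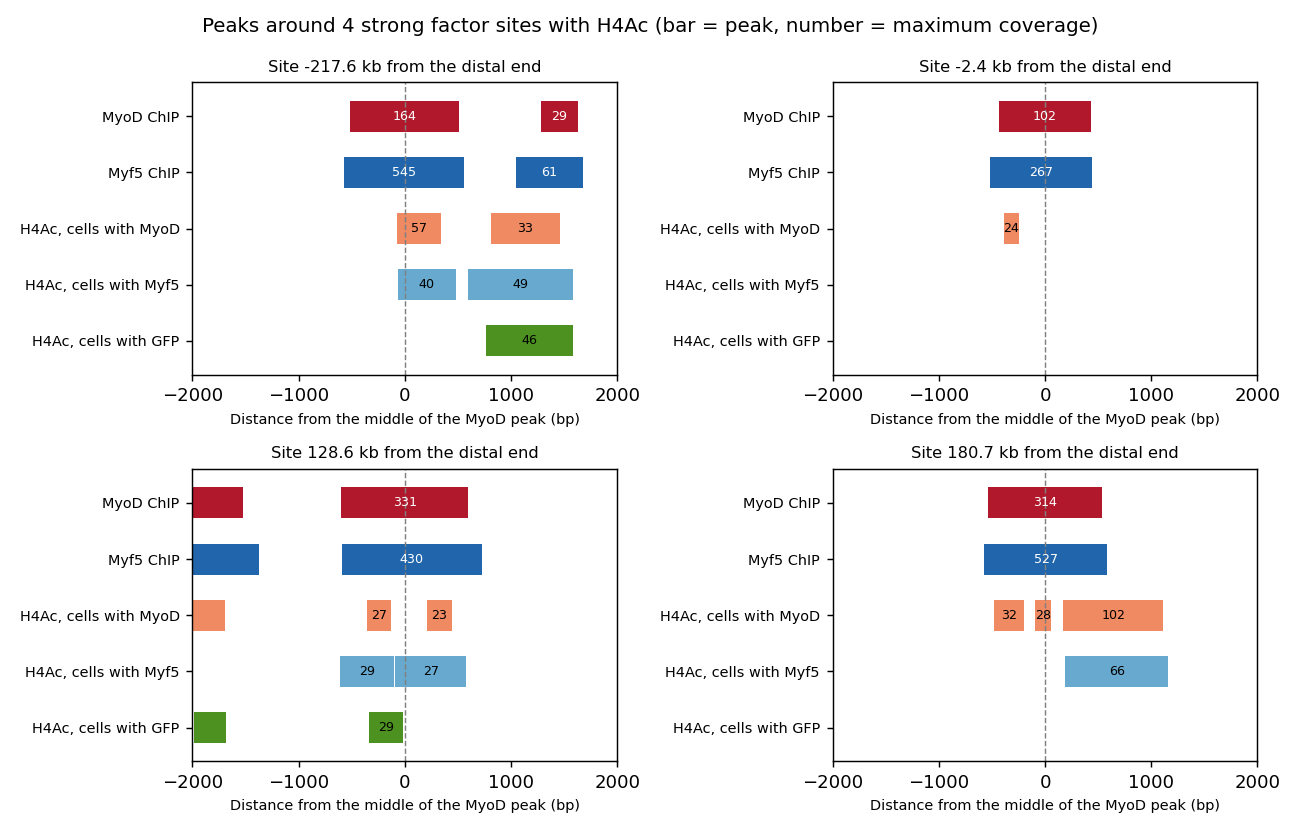
Extent of the called peaks (bars, cut at the panel edge) and their maximum coverage in reads (numbers) around the middle of the MyoD peak, at the 4 strong sites with H4Ac. At 180.7 kb upstream, H4Ac peaks of 32, 28 and 102 in cells with MyoD and of 66 in cells with Myf5 have no counterpart in cells with GFP.

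The 7 regions called in cells with MyoD only lay on both sides of the middle of their list. Their coverage was 24 to 41, or 1.09 to 1.86 times the cutoff. The whole list of cells with MyoD had medians of 30 and 1.37. Of the 7 regions, 6 lay at sites of both factors. Over all such regions in the genome, 40.9% overlapped a MyoD peak and 54.5% a Myf5 peak. In the window, those 77.8 and 78.5 kb upstream lay in 1 factor site (MyoD 75, Myf5 166), with H4Ac coverages of 41 and 24. Another lay at the site at -2.4 kb (24), 1 at a weak site 172 kb upstream (27, with MyoD at 28 and Myf5 at 45), and 2 beside the strong region above. The last, 259.8 kb upstream, had a coverage of 24 and lay 20983 bp from the nearest MyoD peak. The 1 region of cells with Myf5 only, at -134.4 kb, had a coverage of 28 against a cutoff of 24, and the nearest factor peak was 265 bp away.

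Regions called in all populations were 3. The one at 92623869 to 92624890, or -201.9 kb, was the strongest of them in cells with Myf5. Its coverage was 49 in cells with MyoD, 61 with Myf5 and 45 with GFP, and the nearest factor peak was 6233 bp away. The second is the region at 92609340 given above, where weak factor peaks (MyoD 29, Myf5 61) also lay. The third, at 92954198 to 92955383, lay on the site with the highest MyoD coverage of the window. It had H4Ac coverages of 27 in cells with MyoD, 29 with Myf5 and 29 with GFP, against cutoffs of 22, 27 and 26. The 2 strongest MyoD sites of the window thus differed in H4Ac: near the cutoff in every population at 128.6 kb, and called with either factor but not with GFP at 180.7 kb. Just before the first of them, 2 regions 126.2 and 126.7 kb upstream were called in cells with MyoD (38 and 39) and GFP (30 and 29), but not with Myf5.

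The mock lists, of 942 peaks for the MyoD antibody and 1359 for the Myf5 antibody, had no peak in the window. Over the genome they held 0.0366 and 0.0527 peaks per 100 kb, so most windows of 520 kb hold none. The nearest was a Myf5 mock peak at 93789341 to 93789856, with a coverage of 61.

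The tiles most like the window by their 5 peak counts were on chromosomes 11 and 5. Likeness was the distance between log2(count + 1) values over the 5 lists. The nearest, on chromosome 11 from 114920001 to 115440000, had 30 MyoD and 60 Myf5 peaks, and H4Ac peaks of 18 in cells with MyoD, 8 with Myf5 and 7 with GFP, at a distance of 0.34. The next were on chromosome 11 from 3120001 to 3640000 (0.44) and on chromosome 5 from 111280001 to 111800000 (0.49).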

How the data were processed

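The data were lists of called peaks from chromatin immunoprecipitation and sequencing. Per the labels' protocols, crosslinking for 11 min and sonication preceded factor precipitation, while H4Ac was taken from native chromatin after 18 min with 15 units of micrococcal nuclease. Per the submitters' processing notes, CASAVA 1.8.2, BWA 0.7.5 and 2 builds, hg19 and mm9, were involved, with no role stated. Not given in the sources used here are the peak caller, how replicates were joined and which control the H4Ac lists had. The last chromosome 1 peak ends at 197068167, past the last GRCm38 gene there at 195291439, so positions were read as mm9. The gene bounds were given with the window, and no mm9 annotation or genome sequence was used here.

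Per the file headers, the authors' deposited signal is the maximum coverage of each peak, with a coverage cutoff for its GC bin. No scaling to depth is named, and the depth per sample is unknown. Peak p-values are also the authors' own, per the file headers. The deposited control p-value passes 1 in places, so this score was not used. Where the deposited GFP list had a placeholder in place of a control coverage (1 cell), it was left blank.

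An overlap of 1 bp or more counted as shared. Peaks were ranked by coverage within their list, with ties at the best rank. Promoters are from RefSeq, where 2 entries matched Runx1. Overlap counting was checked on simulated data (40000 peaks a list, 3 planted shares) and made 0 errors. The members, lists and rule for named sites were chosen with earlier results of these data known. The rule names sites in the strongest 10% of a factor list, H4Ac regions absent with GFP or called in all 3 populations, and the 3 most similar tiles. E-boxes in peaks were not counted, for want of an mm9 sequence. Alternatives were a coverage of at least 1.5 times the cutoff, an overlap set by the length of the shorter peak, a gap of up to 500 bp, lists of equal length, ranks by coverage over cutoff and, added after seeing the data, the GFP cutoffs in every H4Ac list. Scripts ran in Python 3.11.15 with scipy 1.17.1, pandas 2.3.3, matplotlib 3.10.9 and numpy 2.4.6.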

Additional observations from a re-analysis of the deposited data

How the results depend on the processing

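Of 42 alternative values for 14 results, 29 stayed within a limit and 13 did not. For counts the limit was 1.5 times the reported count, and for the position of the strongest H4Ac peak its 95% binomial interval, which is narrow. A coverage of at least 1.5 times the cutoff moved 8 results. It left 18 MyoD peaks in the window (28 before), all 18 at a Myf5 peak, and 18 Myf5 peaks at a MyoD peak. H4Ac peaks without a GFP peak were then 6 in cells with MyoD (11 before) and 1 in cells with Myf5 (3 before). Of the 6, 4 are among the 11, and the other 2 overlap GFP peaks that the same limit removed. H4Ac peaks at the own factor numbered 6 with MyoD (13 before) and 2 with Myf5 (5 before), and GFP peaks at MyoD peaks 0 (4 before). Lists of equal length left 33 Myf5 peaks (58 before), 27 of them at a MyoD peak, and 27 of 28 MyoD peaks at a Myf5 peak. With the GFP cutoffs in every H4Ac list, 6 peaks in cells with MyoD had no GFP peak. Ranked by coverage over cutoff, the strongest H4Ac peak of the window stood at the top 2.86% in cells with MyoD, 11% with Myf5 and 31.8% with GFP (3.17%, 12.5% and 29.8% by coverage). No paired analysis was possible because each group has 1 list and the results come from no test. With no depth per sample, a peak that was not called cannot be told apart from one too shallow to call.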

Other observations

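Factor peaks continued on both sides of the window. In the 260 kb above it, farther upstream of Runx1, there were 9 MyoD and 20 Myf5 peaks, the strongest with coverages of 179 and 396, and H4Ac peaks numbered 1 in cells with MyoD, 0 with Myf5 and 0 with GFP. In the 260 kb below it there were 4 MyoD and 14 Myf5 peaks, with coverages of up to 195 and 330, and 4 H4Ac peaks in cells with MyoD, 2 with Myf5 and 3 with GFP. The peaks nearest to the lower edge of the window were a MyoD peak of 48 and a Myf5 peak of 149 outside it, and 30 and 67 inside. Above the upper edge, the nearest were a MyoD peak of 86 from 93107282 and a Myf5 peak of 30 from 93103094. Inside, the last MyoD and Myf5 peaks, of 314 and 527, ended at 93007557 and 93007603. The rest of the window up to this edge held no factor peak.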
